A study of Mus musculus with 3 samples.

Results

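This account covers 36 mouse genes of cell death: the BCL2 family, caspases and their platform, inhibitors of apoptosis, death receptors with their adaptors, and the kinases and executor of necroptosis. They were taken by gene name from a deposited table of 22976 genes, and all 36 were found. The selection rule used no expression values, but the genes were chosen with earlier results of these data known. Messenger RNA was sequenced in 3 libraries of NSC-34, a mouse hybrid line whose parents were a neuroblastoma and embryonic spinal cord cultures rich in motor neurons. The 2 tested libraries, clone 1 and clone 2, came from wild-type cells that became resistant to PR20 spontaneously, and their labels give 10 µM PR20 for 3 weeks. PR20 is a synthetic chain of proline-arginine units, one of the dipeptides translated from the expanded C9ORF72 repeat. The control was 1 library of untreated wild-type NSC-34 cells. Each tested library is a clone grown under selection, while the control is an unselected culture, so cloning, selection and the peptide itself cannot be told apart. Whether the clones arose in separate cultures is not given, so the p-values reflect variation between these libraries alone, and that variation may be technical.

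Cells die by apoptosis when BAX or BAK permeabilises the outer mitochondrial membrane. Survival members of the BCL2 family hold these effectors in check, and BH3-only proteins release them. Cytochrome c then leaves the mitochondrion and assembles with APAF1 into the apoptosome, which activates caspase 9, while DIABLO frees caspases from XIAP. Death receptors at the surface reach the same caspases through FADD and caspase 8, or, with caspase 8 blocked, drive necroptosis through RIPK1, RIPK3 and MLKL. Neurons are known to keep several of these steps low after differentiation, whereas neuroblastoma lines often carry silenced death receptor or caspase genes.

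The table held 11389663 counts in clone 1, 11307034 in clone 2 and 11700755 in the control. A floor of 3 counts corresponds to 0.263, 0.265 and 0.256 CPM in these libraries, and it covers counting error only. Levels are CPM, counts relative to library size after TMM scaling. A mean ± SD of the clones has n = 2, no error can be given for the lone control, and ± after a log2 fold change is its SE. The labelled identity was only partly borne out by marker genes. Of the motor neuron markers, Lhx3 had 0 reads in either clone and 1 in the control, Chat had 0 reads in either clone and 7 in the control, and Mnx1 had 1 and 3 reads in the clones and 1 in the control. The 6 motor neuron markers summed to 5.79 and 4.85 CPM in the clones and to 23.2 CPM in the control, and Isl1, Isl2 and Slc18a3 were called lower. Isl1 had 23 and 17 reads in the clones and 72 in the control, Isl2 had 38 and 33 in the clones and 85 in the control, and Slc18a3 had 3 and 1 in the clones and 113 in the control. The neuronal markers, 6 of 7 in the table and 5 called lower, summed to 264 and 257 CPM in the clones and to 1148 CPM in the control. All 6 sympathetic neuroblastoma markers were called lower, with sums of 596 and 520.3 CPM in the clones and 1014.7 CPM in the control. Fibroblast markers, 1 called higher (Col3a1) and 1 lower (Pdgfra), summed to 80.4 and 106 CPM in the clones and to 82.9 CPM in the control, endothelial markers, 2 called lower, to 15.7 and 17.6 CPM in the clones and 31.95 CPM in the control, and glial markers to 6.50 and 5.93 CPM in the clones and 7.49 CPM in the control. Markers of macrophages and microglia summed to between 1.58 and 2.34 CPM in all libraries. The part of this difference in neuronal identity in the results below was not tested. In bulk RNA, fewer cells of a type and less RNA per cell cannot be told apart.

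The effector gene Bak1 more than doubled in the resistant clones, Bax and the TNF receptor gene Tnfrsf1a rose by under 1.5-fold, and 3 of 4 survival genes fell slightly. The apoptosome scaffold gene Apaf1 and the caspase-freeing gene Diablo fell. No tested caspase member passed the test. Of the 36 genes, 33 passed the low-count filter. At an adjusted p under 0.05, edgeR called 21 of the 33, which is 63.6%, beside a background of 50.1% of all 13705 tested genes. Of these, 11 were higher, against 24.3% of all tested genes, and 10 were lower, against 25.8%. Their median log2 fold change was 0.08, and that of all tested genes was 0.00. The median size of the change without its sign was 0.35 for the 33 genes and 0.33 for all genes. At least 1.5-fold changes were called for 8 members, which is 24.2%, beside 22.4% of all tested genes, and at least 2-fold changes for 4, which is 12.1%, beside 11.6%. The control lay outside the range of the clones for all 21 called members and for 8 of the 12 members that were not called, and for 88.5% of all tested genes. At these 2 fold limits the share of members was close to the background.

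The number of calls differed widely between tools and filters, and the design leaves a single residual degree of freedom. DESeq2 called 5 of the 21 genes, namely Bak1, Bax and Tnfrsf1a as higher and Apaf1 and Diablo as lower, and 15.2% of the members beside 22.2% of all tested genes. The authors' deposited table, also made with DESeq2 from these libraries, gives an adjusted p under 0.05 for the same 5 members. In it Bax, at 0.0480, and Apaf1, at 0.0447, lay just under the threshold. Without the low-count filter, edgeR called 0 members, 16 having an unadjusted p under 0.05, and 4 of all genes, 7087 having such a p. The adjusted p of Bak1 was then 0.0719. Below, rose and fell refer to the filtered edgeR test, and the other 16 calls rest on that test without DESeq2.

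**Figure D1:**
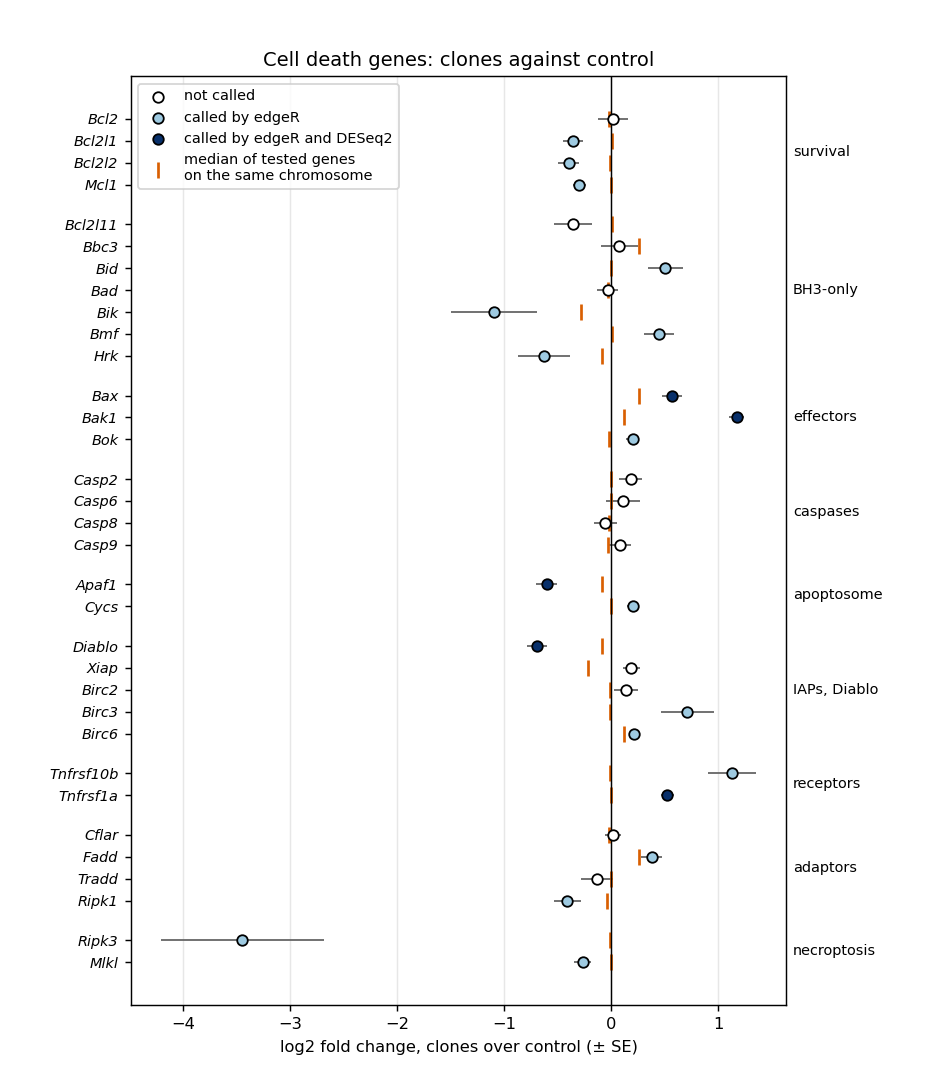
Log2 fold change of each of the 33 tested genes, clones over control, with its SE, by role. Fill shows the call by edgeR or by edgeR and DESeq2, and vertical ticks mark the median of all tested genes on the same chromosome. Bak1 and Tnfrsf10b lie farthest to the right at 1.17 and 1.14, and Ripk3 lies at -3.44.

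To place the 5 genes called by both tools, the 250 bases before the RefSeq transcription start (GRCm38.p6) are described. Such windows were found for 32 of the 36 genes, 44 windows in all. Shown 5′ to 3′ on the coding strand are those of Bax, which rose, and of Apaf1 and Diablo, which fell. They lie at chr7:45466899-45467148, chr10:91082744-91082993 and chr5:123524165-123524414, all on the minus strand. Capitals mark matches on either strand to short motifs, none of which overlap in these windows. The GC box was searched as GGGCGG. The CCAAT box was searched by the letters of its name. The TATA box was searched as TATAAA, and the E-box as CACGTG. The cyclic AMP element was searched as TGACGTCA. For E2F, either TTTCCCGC or TTTGGCGC was taken as a match.
Bax: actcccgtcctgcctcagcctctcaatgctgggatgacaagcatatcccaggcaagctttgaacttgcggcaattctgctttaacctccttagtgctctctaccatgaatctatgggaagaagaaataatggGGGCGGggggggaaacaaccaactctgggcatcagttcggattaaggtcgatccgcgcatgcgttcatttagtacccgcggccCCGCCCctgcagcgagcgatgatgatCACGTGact
Apaf1: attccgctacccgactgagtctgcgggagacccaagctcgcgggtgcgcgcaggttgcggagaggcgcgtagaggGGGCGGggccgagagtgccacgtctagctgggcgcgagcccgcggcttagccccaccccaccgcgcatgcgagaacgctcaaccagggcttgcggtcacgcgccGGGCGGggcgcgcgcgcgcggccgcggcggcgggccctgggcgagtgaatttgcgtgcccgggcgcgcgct
Diablo: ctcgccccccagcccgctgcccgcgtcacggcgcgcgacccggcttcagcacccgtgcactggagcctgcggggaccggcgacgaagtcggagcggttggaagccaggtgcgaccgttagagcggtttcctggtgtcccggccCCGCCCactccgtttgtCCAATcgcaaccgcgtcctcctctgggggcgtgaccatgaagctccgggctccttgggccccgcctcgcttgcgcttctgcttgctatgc
The Bax window held GC boxes and an E-box, the Apaf1 window GC boxes, and the Diablo window a GC box and a CCAAT box. A GC box stood in 27 of the 44 member windows (61.4%) and in 32.7% of all 32851 windows, and a CCAAT box in 11 of 44 (25.0%) and 33.8% of all. The E-box was found in 4 member windows (9.09%), those of Bax, Bbc3, Fas and Ripk3, and in 6.02% of all windows. The other motifs stood in 2 member windows each (4.55%), beside 12.4% of all windows for the TATA box, 1.55% for the cyclic AMP element and 1.30% for E2F. The windows of Bak1 and Tnfrsf1a held none of these letters. They are not shown because they lie wholly inside longer Gencode gene models. A match is a run of letters and not a site, and members called higher and lower shared the GC box. The background held every window, whether or not its gene was tested here. The member shares were not compared with those of tested genes alone.

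Among the pore-forming effectors, all 3 rose, beside 24.3% of all tested genes. Bak1 (ENSMUSG00000057789.13, chr17:27019810-27029009) encodes BAK, which sits in the outer mitochondrial membrane. It had 1228 and 1248 counts in the clones and 590 in the control. On the scaled level it stood at 109 and 112 CPM in the clones and at 49.1 CPM in the control (log2 fold change 1.17 ± 0.07, edgeR adjusted p = 2.10e-09; DESeq2 adjusted p = 5.54e-14). The clones were alike, and the control lay far below both. Of all tested genes, 10.5% changed by more. The neighbouring gene Ggnbp1, whose exons overlap those of Bak1 on the opposite strand, had 9 and 17 counts in the clones and 17 in the control.

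Bax (ENSMUSG00000003873.11, chr7:45461697-45466898) encodes the effector that moves from the cytosol to mitochondria. It stood at 44.9 and 44.9 CPM in the clones and at 30.3 CPM in the control (log2 fold change 0.57 ± 0.09, edgeR adjusted p = 0.000109; DESeq2 adjusted p = 0.0288). Chromosome 7 as a whole was higher in the clones, with a median log2 fold change of 0.26 over 1069 tested genes. With each chromosome centred on its own median, the change of Bax was 0.31 and still passed (edgeR adjusted p = 0.0128). Bok, a relative of BAX and BAK regulated by protein turnover, had 169 and 169.8 CPM in the clones and 147 CPM in the control (log2 fold change 0.20, edgeR adjusted p = 0.00829; DESeq2 adjusted p = 0.213). All 3 effectors thus lay above the control in both clones, by amounts between 1.15-fold and 2.26-fold.

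Of the 4 survival genes 3 fell, each by less than 1.5-fold, beside 25.8% of all tested genes called lower. Mcl1, the short-lived survival protein gene, stood at 122 and 125 CPM in the clones and at 152 CPM in the control (log2 fold change -0.30 ± 0.06, edgeR adjusted p = 0.000618; DESeq2 adjusted p = 0.0592). Bcl2l1, which encodes BCL-XL, stood at 40.1 and 35.96 CPM in the clones and at 48.6 CPM in the control (log2 fold change -0.35 ± 0.09, edgeR adjusted p = 0.00486; DESeq2 adjusted p = 0.225). Bcl2l2, which encodes BCL-W, stood at 28.3 and 29.9 CPM in the clones and at 38.3 CPM in the control (log2 fold change -0.39 ± 0.10, edgeR adjusted p = 0.00361; DESeq2 adjusted p = 0.222). For each of these 3 genes the control lay above both clones, but none reached the DESeq2 threshold. Bcl2 itself, the founding survival gene, did not pass: the clones had 18.7 and 22.8 CPM and the control 20.5 CPM between them (log2 fold change 0.02 ± 0.14).

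Divided by exon length, Mcl1 was the most abundant survival gene, at 36.2 ± 0.587 CPM per kilobase in the clones and 44.5 in the control. Bcl2l1 had 8.29 ± 0.636 CPM per kilobase in the clones and 10.6 in the control, Bcl2l2 had 6.53 ± 0.255 in the clones and 8.58 in the control, and Bcl2 had 2.27 ± 0.319 in the clones and 2.24 in the control. The order was identical in clones and control and also with the longest transcript as the length. Among the effectors, Bok had 91.96 ± 0.459 CPM per kilobase in the clones and 79.9 in the control, Bak1 had 46.0 ± 0.824 in the clones and 20.4 in the control, and Bax had 28.5 ± 0.0243 in the clones and 19.2 in the control. With this length Bak1 exceeded Bax in both clones, while in the control the genes were close. With the longest transcript as the length, Bak1 had 46.4 and Bax 40.8 CPM per kilobase in the clones, and Bak1 had 20.6 and Bax 27.5 in the control. The order of Bak1 and Bax in the control therefore depends on the length used, as does the size of their difference in the clones. On the same strand, other Gencode gene models share 594 exonic bases with Bcl2l2 and 192 with Bax. Those models are not among the counted genes, and reads there may be counted for neither.

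**Figure D2:**
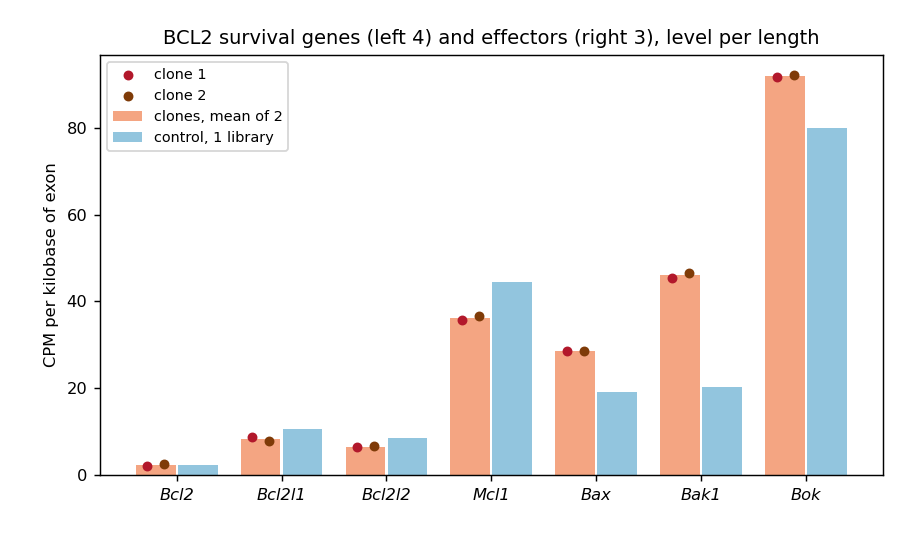
Level in CPM per kilobase of exon (union of annotated exons) of the survival genes and the effectors. Bars show the mean of the clones and the control, and points show each clone; Bak1 stands at 46.0 in the clones and at 20.4 in the control, and Mcl1 at 36.2 in the clones and 44.5 in the control.

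The BH3-only genes, which sense stress and switch the effectors on, did not move one way. Of 8, 7 were tested, 2 rose and 2 fell, beside 24.3% and 25.8% of all tested genes. Bid, which links death receptors to mitochondria once cleaved, had 15.4 and 18.97 CPM in the clones and 12.1 CPM in the control (log2 fold change 0.51 ± 0.17, edgeR adjusted p = 0.0178; DESeq2 adjusted p = 0.307). Bmf, tied to the cytoskeleton, had 30.6 and 24.3 CPM in the clones and 20.1 CPM in the control (log2 fold change 0.45 ± 0.14, edgeR adjusted p = 0.0134; DESeq2 adjusted p = 0.252). Its change was 0.28 without clone 1, and it did not pass with limma-voom. Bid shares exons with Bcl2l13 on the opposite strand, which was not called. The BH3-only genes that fell had few counts.

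Bik, a BH3-only gene of the endoplasmic reticulum, had 11 and 22 counts in the clones and 38 in the control. It changed by -1.09 ± 0.40 on the log2 scale (edgeR adjusted p = 0.0316; DESeq2 adjusted p = 0.449), -0.67 without clone 1 and -1.68 without clone 2. It lies on chromosome 15, whose 550 tested genes had a median of -0.28. Hrk, a BH3-only gene known for its induction in neurons deprived of growth factor, had 45 and 56 counts in the clones and 84 in the control (log2 fold change -0.63 ± 0.24, edgeR adjusted p = 0.0427; DESeq2 adjusted p = 0.481). Neither Bik nor Hrk passed with RLE size factors, limma-voom or chromosome centring. For both genes the clones lay below the control.

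Bcl2l11, which encodes BIM, stood at 10.2 and 8.63 CPM in the clones and at 12.1 CPM in the control (log2 fold change -0.35 ± 0.18, edgeR adjusted p = 0.118). Bbc3, which encodes the p53 target PUMA, had 16.03 and 12.4 CPM in the clones and 13.5 CPM in the control, between them. Bad, whose product is inactivated by phosphorylation downstream of growth factors, had 34.02 and 33.8 CPM in the clones and 34.6 CPM in the control. Reads of Bad may be shared with Gpr137, which overlaps it on the opposite strand and fell, with 464 and 467 counts in the clones and 653 in the control (log2 fold change -0.38, edgeR adjusted p = 0.00122). Pmaip1, which encodes NOXA, another p53 target, had 1 and 3 counts in the clones and 3 in the control and was not tested.

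**Figure D3:**
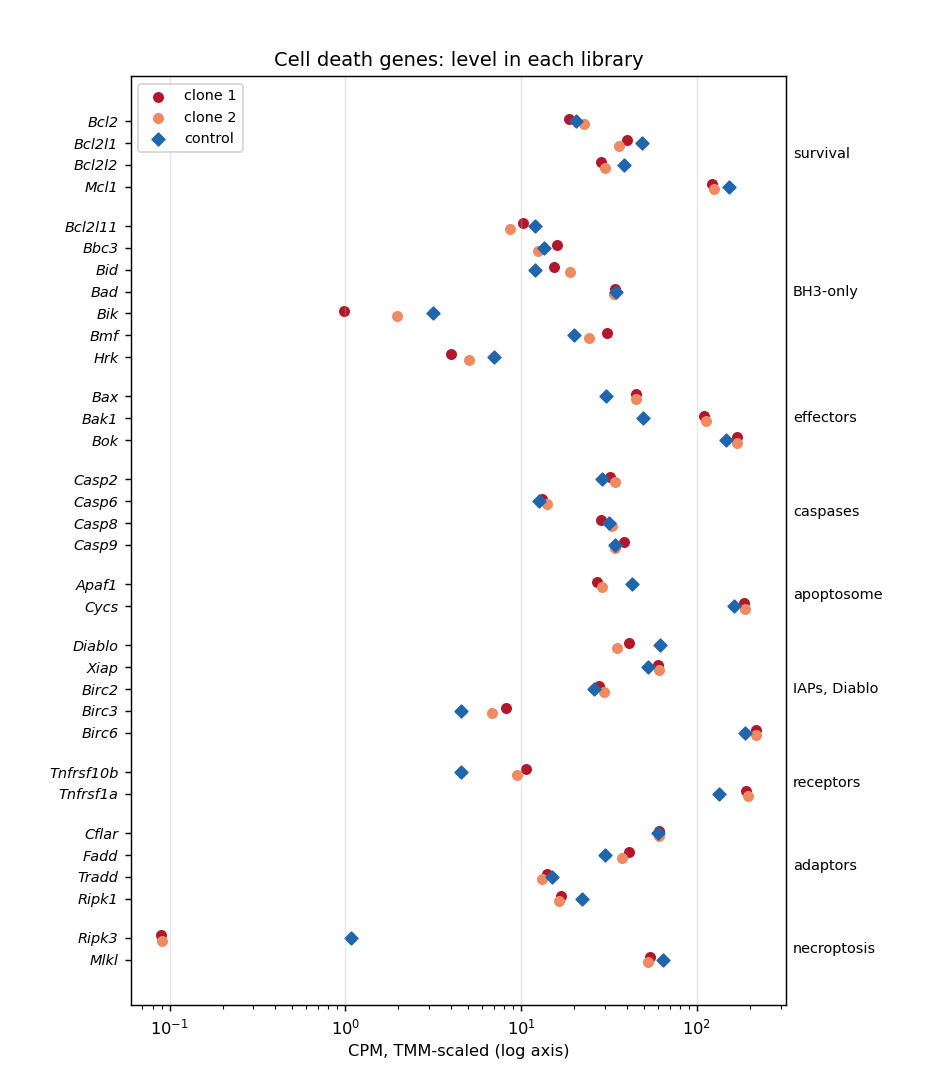
Level of each of the 33 tested genes in clone 1, clone 2 and the control, in CPM on a log axis, by role. Ripk3 stands at 0.0891 CPM in clone 1 and 1.08 CPM in the control, and both clone points lie on one side of the control for all 21 called genes.

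Of the 5 caspase genes 4 were tested and 0 were called, beside 50.1% of all tested genes. With edgeR 0 had an unadjusted p under 0.05, and DESeq2 called 0 as well. The initiator genes Casp2, Casp8 and Casp9 and the executioner gene Casp6 had log2 fold changes of 0.18 ± 0.10, -0.05 ± 0.11, 0.08 ± 0.10 and 0.11 ± 0.16. Casp8, the caspase of the death receptors, stood at 28.3 and 32.7 CPM in the clones and at 31.6 CPM in the control. Casp9, the caspase of the apoptosome, stood at 38.4 and 34.3 CPM in the clones and at 34.4 CPM in the control. Casp12, a caspase gene of the endoplasmic reticulum in mice, had 1 and 2 counts in the clones and 0 in the control.

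Both apoptosome genes passed the test, in opposite directions, beside 50.1% of all tested genes. Apaf1 (ENSMUSG00000019979.12, chr10:90989311-91082770), whose GC box window is shown above, stood at 27.2 and 29.0 CPM in the clones and at 42.6 CPM in the control. The change was -0.60 ± 0.10 on the log2 scale, past the threshold in edgeR (adjusted p = 9.72e-05) and DESeq2 (adjusted p = 0.0329), with both clones below the control. Cycs, which encodes cytochrome c, the ligand of APAF1, stood at 185 and 189 CPM in the clones and at 162 CPM in the control (log2 fold change 0.21 ± 0.06, edgeR adjusted p = 0.00650; DESeq2 adjusted p = 0.177). Cycs has 2 annotated pseudogenes named after it, and reads shared with such copies may be missing.

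Diablo (ENSMUSG00000029433.15, chr5:123509765-123524176), which encodes the mitochondrial antagonist of inhibitors of apoptosis, stood at 41.2 and 35.1 CPM in the clones and at 61.8 CPM in the control. It changed by -0.69 ± 0.09 on the log2 scale (edgeR adjusted p = 1.57e-05; DESeq2 adjusted p = 0.00314). For Diablo too the clones lay below the control, and clone 2 lay below clone 1 with a ratio of 0.852 (95% counting interval 0.743 to 0.977). Its exons overlap those of B3gnt4 on the opposite strand, which had 2 and 5 counts in the clones and 5 in the control. A second gene model (ENSMUSG00000114278.1) shares exonic bases with Diablo on the same strand and had 1 and 0 counts in the clones and 0 in the control, and reads there may be counted for neither.

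Among the inhibitors of apoptosis 2 of 4 rose, beside 24.3% of all tested genes. Birc6, a very large ubiquitin ligase gene, stood at 218 and 218 CPM in the clones and at 188 CPM in the control (log2 fold change 0.22 ± 0.06, edgeR adjusted p = 0.00351; DESeq2 adjusted p = 0.118). With chromosomes centred, Birc6 changed by 0.10 and did not pass (edgeR adjusted p = 0.149). Birc3, which encodes cIAP2, an NF-κB target, had 92 and 76 counts in the clones and 55 in the control (log2 fold change 0.71 ± 0.24, edgeR adjusted p = 0.0233; DESeq2 adjusted p = 0.355). Xiap, which binds caspases directly, stood at 60.0 and 60.9 CPM in the clones and at 53.0 CPM in the control and did not pass (edgeR adjusted p = 0.0544). Chromosome X had a median of -0.22 over 425 tested genes, and with chromosomes centred Xiap changed by 0.41 on the log2 scale (edgeR adjusted p = 0.000468). For Birc2, which encodes cIAP1, the log2 fold change was 0.14 ± 0.11 and missed the threshold.

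Both tested death receptor genes rose, beside 24.3% of all tested genes. Tnfrsf10b, the TRAIL receptor gene of the mouse and a p53 target, had 119 and 106 counts in the clones and 55 in the control. It stood at 10.6 and 9.53 CPM in the clones and at 4.58 CPM in the control (log2 fold change 1.14 ± 0.22, edgeR adjusted p = 0.000546; DESeq2 adjusted p = 0.0508). In the authors' deposited table its adjusted p was 0.0769. Tnfrsf1a (ENSMUSG00000030341.17, chr6:125349362-125362484), which encodes the main TNF receptor, stood at 191 and 196 CPM in the clones and at 134 CPM in the control. The change was 0.53 ± 0.06 on the log2 scale (edgeR adjusted p = 1.93e-06; DESeq2 adjusted p = 2.88e-05). Both clones lay above the control for each receptor. Fas, the receptor of FAS ligand, had 0 counts in either clone and 1 in the control, and at this depth a level under the floor of 3 counts cannot be told from 0.

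The adaptors of these receptors were mixed. Fadd, the adaptor that recruits caspase 8, stood at 41.0 and 37.4 CPM in the clones and at 30.1 CPM in the control (log2 fold change 0.38 ± 0.10, edgeR adjusted p = 0.00544; DESeq2 adjusted p = 0.228). It lies on chromosome 7, and with chromosomes centred its change was 0.12 and did not pass (edgeR adjusted p = 0.350). Serpinb6a, which overlaps Ripk1 on the opposite strand, was not called. Ripk1, the kinase that TNF receptor complexes recruit, stood at 16.8 and 16.5 CPM in the clones and at 22.1 CPM in the control (log2 fold change -0.41 ± 0.13, edgeR adjusted p = 0.0155; DESeq2 adjusted p = 0.368). Cflar, which encodes the caspase 8 inhibitor FLIP, had 61.2 and 60.9 CPM in the clones and 60.2 CPM in the control, and Tradd, the TNF receptor adaptor gene, had 13.98 and 13.2 CPM in the clones and 14.9 CPM in the control. Neither passed.

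The genes of necroptosis fell, beside 25.8% of all tested genes. Ripk3, the kinase that phosphorylates MLKL, had 1 count in each clone and 13 in the control (edgeR adjusted p = 0.00121; DESeq2 adjusted p = 0.223). Per library size the control exceeded the clones 12.1-fold, with a 95% counting interval from 2.74 to 110.4. The fitted log2 fold change of -3.44 rests on these few reads. Mlkl, which encodes the membrane-disrupting executor, stood at 54.1 and 52.5 CPM in the clones and at 64.0 CPM in the control (log2 fold change -0.26 ± 0.08, edgeR adjusted p = 0.00969; DESeq2 adjusted p = 0.311). Ripk3 was thus below the floor of 3 counts in both clones, where a level cannot be told from 0, and Mlkl was well above it.

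Other genes of these pathways, 62 symbols chosen outside the 36, were matched for 53, and 39 were tested. Of these, 16 rose, against 24.3% of all tested genes, and 7 fell, against 25.8%. Together that is 59.0% called, beside 50.1% of all tested genes. DESeq2 called 14 of them, beside 22.2% of all tested genes. The 5 with the lowest p among those that rose were Traf5, Bnip3, Rbck1, Ltbr and Bcl2l12. Traf5, a TNF receptor adaptor gene, had 216 and 279 counts in the clones and 72 in the control (log2 fold change 1.88 ± 0.20). Bcl2l12, a BCL2-related gene, and Bnip3, a hypoxia-induced gene of mitophagy, had log2 fold changes of 1.73 ± 0.24 and 0.58 ± 0.07, and both lie on chromosome 7. With chromosomes centred, Bnip3 had a change of 0.32. Rbck1, a subunit of the linear ubiquitin ligase at TNF receptors, and Ltbr, the lymphotoxin beta receptor gene, had log2 fold changes of 0.62 ± 0.07 and 0.54 ± 0.07.

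The 5 with the lowest p among those that fell began with Ngfr, which encodes p75, a neurotrophin receptor with a death domain. It had 126 and 109 CPM in the clones and 313 CPM in the control (log2 fold change -1.41 ± 0.07, edgeR adjusted p = 9.56e-11; DESeq2 adjusted p = 1.29e-30). Naip2 is an inhibitor gene of the NAIP family known for sensing bacterial proteins. It had 44 and 36 counts in the clones and 252 in the control (log2 fold change -2.55 ± 0.19). Reads shared with its near-identical relatives may be missing. Cyld, a deubiquitinase gene acting on TNF receptor complexes, Dffa, the inhibitor gene of the apoptotic nuclease, and Map3k7, which encodes the kinase TAK1, had log2 fold changes of -0.63, -0.67 and -0.29. DESeq2 called all 10 of these genes in the same direction.

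The clones were also set against each other, with 1 library each and so without a test. Of the 33 genes, 1 passed 1.5-fold either way, beside 9.05% of all tested genes, and 1 passed 2-fold, beside 4.08%. The gene was Bik in each case, with a clone 2 to clone 1 ratio of 2.02 (95% counting interval 0.938 to 4.61). The counting interval excluded 1 for 5 of the 33 genes, beside 11.6% of all tested genes. Bcl2 (1.22) and Bid (1.23) were higher in clone 2, and Bbc3 (0.774), Bmf (0.792) and Diablo (0.852) were lower in clone 2. The 3 effectors had ratios between 1.00 and 1.03.

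**Figure D4:**
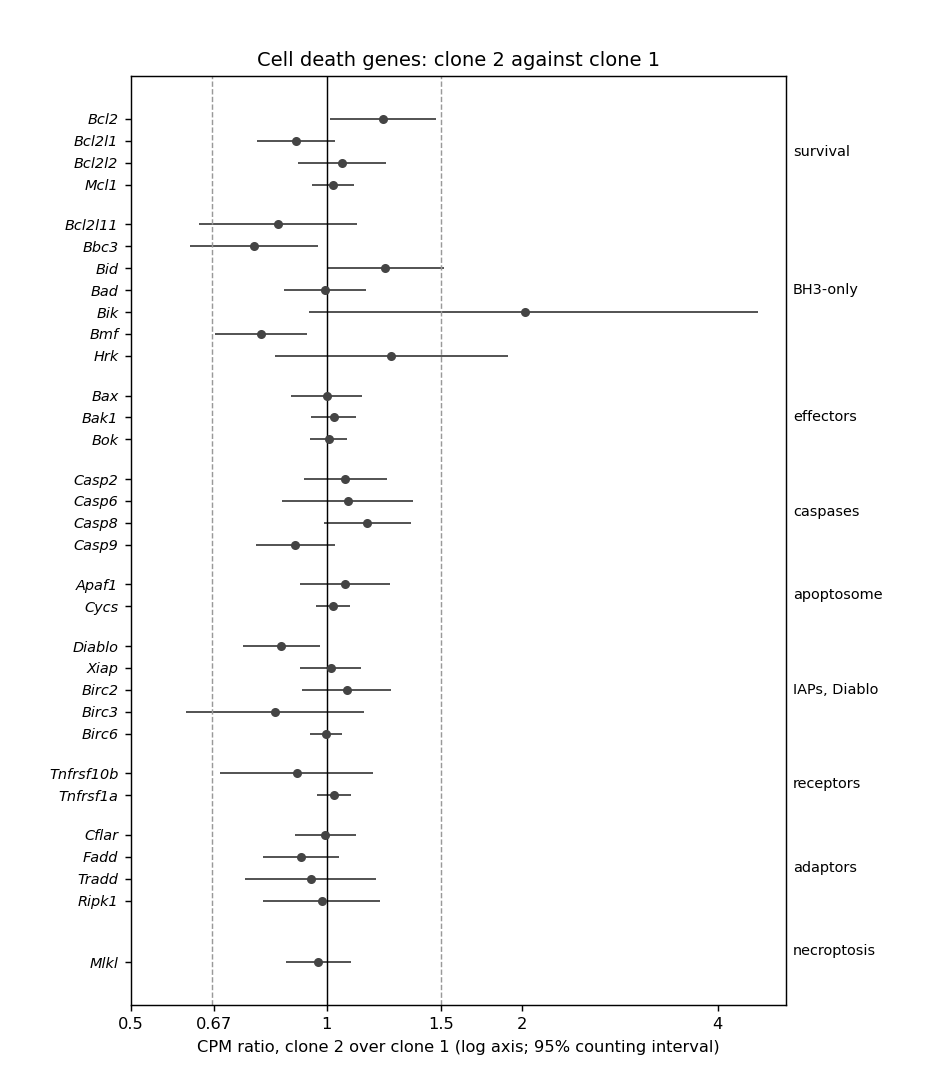
Ratio of clone 2 to clone 1 in CPM, on a log axis, with 95% counting intervals, for the tested genes except Ripk3, which had 1 count in each clone. Dashed lines mark 1.5-fold; Bik, at 2.02 with a wide interval, is the one gene whose point lies beyond them.

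Chromosomes differed in their median change. Among those that hold members, the medians farthest from 0 were 0.26 on chromosome 7 (Bax, Bbc3, Fadd), -0.28 on chromosome 15 (Bik), 0.12 on chromosome 17 (Bak1, Birc6), 0.41 on chromosome 18 (Pmaip1, not tested) and -0.22 on chromosome X (Xiap). Bak1 lay 1.05 above the median of its chromosome on the log2 scale, and Bax lay 0.31 above. With chromosomes centred, 17 of the 21 calls were kept in direction and 4 were lost, namely Bik, Hrk, Birc6 and Fadd. Hrk lies on chromosome 5, whose median was -0.08, and had an edgeR adjusted p of 0.0757 after centring. Off chromosomes 7, 15, 18 and X, 9 of 28 tested members were higher, against 22.7% of all genes tested there, and 9 were lower, against 25.6%. The part of these chromosome-wide differences in the change of any single gene was not tested otherwise.

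**Figure D5:**
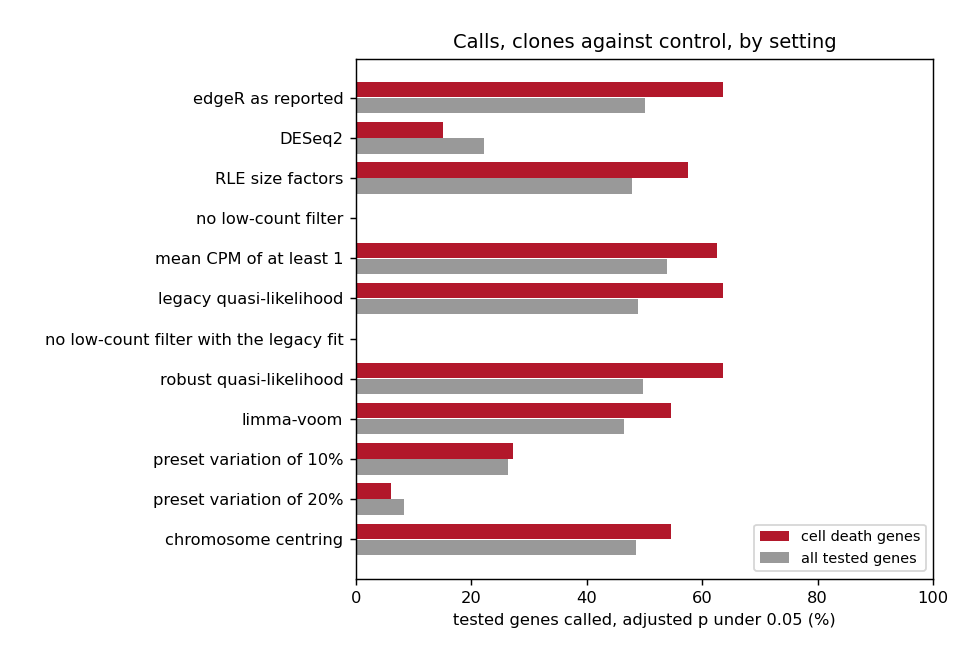
Share of tested genes called at an adjusted p under 0.05 among the cell death genes and among all tested genes, under each setting. The shares were 63.6% and 50.1% as reported, 15.2% and 22.2% with DESeq2, and 0% of the members without the low-count filter.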

How the data were processed

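Messenger RNA libraries were prepared with a stranded kit, per the labels. STAR 2.5 and its gene counting option gave the authors' raw counts on Gencode M16 (Ensembl 91) and GRCm38/mm10, per the file headers. STAR 2.5.3, DESeq2 and bcl2fastq appear in the submitters' processing notes. The deposited RPM columns are mapped-read normalised counts, per the file headers; none was used here. The authors' deposited table gives log2 fold changes with p-values adjusted after Benjamini-Hochberg from DESeq2, per the file headers. Which strand STAR's counts refer to was not given in the sources used here; where exons overlap, reads of a pair may be mixed.

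Groups came from the labels. Low counts were removed with filterByExpr, leaving 13705 genes. The test was edgeR 4.0.16 (R 4.3.3), quasi-likelihood with the legacy option off, TMM factors, two-sided, Benjamini-Hochberg at 0.05 over all tested genes. The SE was the size of the log2 fold change over the square root of F. Only the clones inform the spread (1 residual degree of freedom). On data simulated at 10% variation the procedure missed most changes of 1.5-fold or less. Here 13 of the 21 called members changed by under 1.5-fold, so that rate need not hold for these libraries. A gene that was not called may still have changed. Ratios of clones have exact binomial (Clopper-Pearson) 95% intervals for counting error only. Positions and exon lengths came from Gencode M21 on GRCm38 and promoter windows from RefSeq. Alternatives were DESeq2 1.42.0, limma-voom 3.58.1, RLE factors, other filters and fits, preset variation, chromosome centring and leaving out each clone.

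The genes and lists were chosen with earlier results of these data known. Full values are given for called members of at least 1.5-fold and for the survival and effector genes, values for other called members, and up to 5 other pathway genes called in each direction with the lowest p. Protein stretches planned for the BH3-only and caspase genes were not used here.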

Additional observations from a re-analysis of the deposited data

How the results depend on the processing

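Of the 21 members called, edgeR kept 21 with the legacy or robust fit, 20 at a mean CPM of at least 1, 19 with RLE factors and 17 with chromosome centring, and limma-voom kept 18. DESeq2 called 3037 of all genes (1578 higher, 1459 lower), 5 members (3 higher, 2 lower) and 14 other pathway genes (9 higher). With a preset variation of 10%, 3617 of all genes were called (1436 higher, 2181 lower), 9 members (5 higher, 4 lower) and 12 other pathway genes (8 higher, 4 lower). At 20% these were 1148 (156 higher, 992 lower), 2 members (Bak1 higher, Ripk3 lower, 1 each) and 4 (2 higher, 2 lower). Without a low-count filter edgeR called 4 genes (0 higher, 4 lower), and with the legacy fit as well, chosen after seeing the data, 0 genes (6560 at an unadjusted p under 0.05); both gave 0 members and 0 other pathway genes, with 16 members at an unadjusted p under 0.05. The cause was not tested. 4 members that were not called changed sign: Bcl2 ranged from -0.13 to 0.16 with a clone left out, Bbc3 from -0.12 to 0.25 (-0.18 with chromosome centring), Casp8 from -0.16 to 0.049 and Casp9 from -0.0013 to 0.16. Counts of calls could not be had with a clone left out, since no residual degree of freedom remains, and nothing could be left out of the single control. No paired analysis was possible, since there was only 1 control and the labels give no pairing with the clones. Depth limits Fas, Pmaip1 and Casp12, which had 3 counts or fewer in every library, and Ripk3 and Bik, which had few; the single control limits all members.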
